A study of Arabidopsis thaliana with 28 samples.

Results

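The response of Arabidopsis thaliana miRNAs to 0.5 h of abscisic acid (ABA) was read from 4 small RNA libraries of the first time point of a series of 28. Seedlings of the wild type Col-0 were incubated with ABA, a hormone that rises in drought and holds seeds dormant, and their mock counterparts were kept for the same time. The column headers of the authors' deposited table name the mock EtOH, taken here as ethanol. Each group held 2 libraries of whole seedlings, and neither the ABA concentration nor the seedlings' age was stated in the labels. The seedlings carried no transgene or mutation in the labels. The comparison covers the 352 of 421 miRNAs of the authors' deposited table whose ABA and mock columns at 0.5 h had a mean of at least 10 normalised reads, abundant miRNAs included. The ratio was not used to take them. Just inside this minimum stood the shared sequence of miR5630a and miR5630b (9.08 in ABA, 11.1 in mock), and just outside it miR447c-5p (15.8 in ABA, 3.35 in mock).

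A plant miRNA is cut by DICER-LIKE enzymes from the stem of a hairpin transcript as a duplex of 2 arms, named 5p and 3p. A single arm is usually kept by an ARGONAUTE protein and directs the cutting or repression of transcripts that match it over nearly its whole length. ABA acts within minutes through soluble receptors that block a group of phosphatases and so release SnRK kinases. The conserved miRNA families feed into copper, sulfate and phosphate supply, auxin response and developmental timing.

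The mature sequences that carry the results below are printed 5′ to 3′ as RNA, from the RefSeq TAIR10.1 annotation, with bases 2 to 8, the seed, in capitals. The first 6 include both forms of miR395 and the arms of MIR408 and MIR169g, whose levels parted from the mock or from each other.
miR395a: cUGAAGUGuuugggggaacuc
miR395b: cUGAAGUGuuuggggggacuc
miR408-5p: aCAGGGAAcaagcagagcaug
miR408-3p: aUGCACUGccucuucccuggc
miR169g-3p: uCCGGCAAguugaccuuggcu
miR169g-5p: uGAGCCAAggaugacuugccg
The next set holds other miRNAs that passed the test at 0.5 h, raised first.
miR399d: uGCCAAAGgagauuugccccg
miR157c-3p: gCUCUCUAuacuucugucacc
miR396b-3p: gCUCAAGAaagcugugggaaa
miR397a: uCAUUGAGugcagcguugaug
miR398a-3p: uGUGUUCUcaggucaccccuu
miR864-5p: uCAGGUAUgauugacuucaaa
miR8170-3p: uUGCUUAAagauuuucuaugu
The last set holds miRNAs whose difference at 0.5 h stood apart from the later times.
miR2111b-3p: aUCCUCGGgauacaguuuacc
miR2111a-5p: uAAUCUGCauccugagguuua
miR398b-3p: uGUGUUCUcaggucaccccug
Both miR395 forms share their seed and differ by A17G, miR395a to miR395b, with positions counted from 1 at the 5′ end. The sequence of miR395a is also that of miR395d and miR395e, and that of miR395b is also that of miR395c and miR395f. The 3p sequences of miR398a and miR398b share their seed and differ by U21G, at the last base. Plant miRNAs pair with their targets over nearly their full length, so the seed serves here only to group them.

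Most miRNAs differed little between ABA and mock after 0.5 h, while miR395, of sulfate assimilation, miR408-5p, of copper supply, and miR169g-3p were higher in ABA by 1.56 to 2.28 on the log2 scale and kept their calls whichever library was left out. With only the libraries of 0.5 h in the fit the miR395 calls held, and miR408-5p and miR169g-3p missed the threshold (limma, adjusted p = 0.0624 for each). The log2 ratio of the deposited means, with 1 added to each, had a median of -0.02 over the 352 miRNAs and quartiles of -0.35 and 0.40, and 69.0% of them lay within 1.5-fold. Past 2-fold stood 19 higher in ABA (5.4%) and 14 lower (3.98%). The 2 library values behind a mean were recovered for both groups for 371 of the 421 rows. Of these, 366 passed a filter on low values, 302 of the 352 described among them, and were tested with limma over all 28 libraries. At a Benjamini-Hochberg adjusted p under 0.05, which is what called, raised and lowered mean from here on, 26 of 366 were called (7.1%), 20 raised (5.46%) and 6 lowered (1.64%). They hold 15 raised and 6 lowered mature sequences, and 25 of the 26 are among the described, miR447c-5p being the other. Library values that do not overlap between the groups were common: in 25.7% of tested rows both ABA libraries lay above both mock libraries and in 29.8% both lay below. With 1 library left out, 11 rows were called without ABA library a, 13 without ABA library b, 10 without mock library a and 15 without mock library b, and quantile normalization gave 22 raised and 18 lowered. The authors' deposited table gives an adjusted p for 410 rows, under 0.05 for 27 raised (6.59%) and 19 lowered (4.63%). Of the 26 called here 24 were also called there (92.3%), which is 52.2% of the authors' 46.

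**Figure D1:**
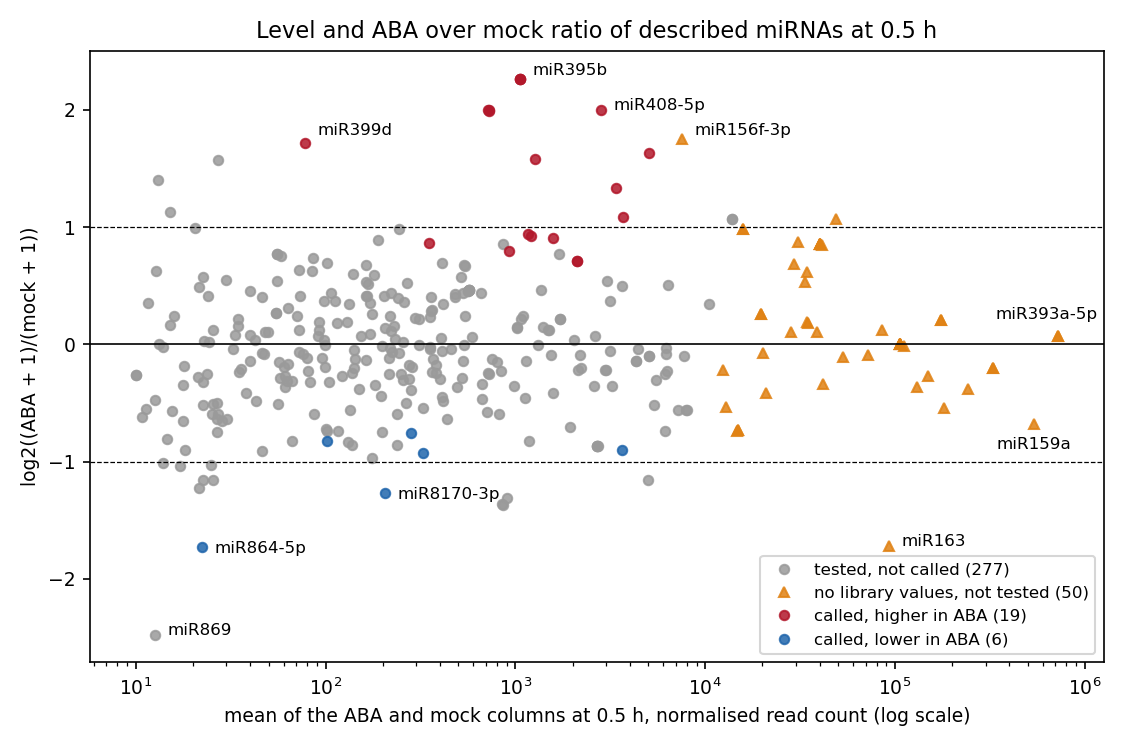
Mean of the ABA and mock columns at 0.5 h in normalised reads (horizontal, log scale) against log2((ABA + 1)/(mock + 1)) (vertical) for the 352 described miRNAs, coloured by the limma call; triangles are the 50 miRNAs without library values in both groups, and dashed lines mark 2-fold. The 19 described raised miRNAs have log2 ratios up to 2.27, and miR163, at -1.72, is the lowest of the triangles.

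The 4 libraries had size factors of 1.01 and 0.938 in ABA and 1.27 and 0.841 in mock. The deposited totals were 5691620 normalised reads in ABA and 5943720 in mock, in which a shared sequence is added once for each of its rows. The counts recovered in each group leave out abundant miRNAs, and summed to 712009 and 648843 in ABA and 366079 and 251007 in mock. These sums cover different rows and do not compare depth. Rows with recovered counts held 12.3% of the total in ABA, up to a mean of 43385, and 4.94% in mock, up to 9498. In each group library a is the one with the larger size factor, and nothing links a library of ABA to a library of mock. The labels do not state separate cultures for the 2 libraries of a group, so that each p-value rests on a spread that may be technical. Library a minus library b on the log2 scale had an SD of 0.49 in ABA and 0.44 in mock. As a check of the seedling label, the juvenile miR156 family summed to 171623 normalised reads in ABA and 90099.5 in mock over its distinct sequences, and the adult miR172 family to 387 in ABA and 370.3 in mock. Both sums include partner arms, among them miR156c-3p at 65956 in ABA and 31439 in mock. The shared miR156 5p sequence stood at 53201 in ABA and 29482 in mock in its highest row, miR156d-5p. Fewer cells that make a miRNA and less of it per cell cannot be told apart in whole seedlings.

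The miR395 family, which targets ATP sulfurylases and a sulfate transporter of sulfate assimilation, had the largest differences among described raised miRNAs. The miR395b row had 1828 and 1678 in the ABA libraries, against 324 and 403 in the mock libraries (all in normalised reads), and miR395a had 1148 and 1169 in ABA, against 265 and 316 in mock. Every ABA library of both forms stood above every mock library. The level rose 4.84-fold for miR395b (limma, log2 difference 2.27, SE 0.36, adjusted p = 3.29e-04, 95% interval 1.52 to 3.03) and 3.99-fold for miR395a (limma, log2 difference 1.997, SE 0.35, adjusted p = 5.93e-04). All 6 rows of the family were raised, miR395c and miR395f by 2.27 and 2.28, and miR395d and miR395e by 2.01 and 2.002, but they hold only 2 sequences. All 6 remained called whichever of the 4 libraries was left out, with log2 differences of 2.12 to 2.43 for miR395b and 1.87 to 2.13 for miR395a. On TAIR10.1 the loci lie on chromosome 1 as a group of a, b and c, with mature miR395a at 9363206 to 9363226 on the minus strand and miR395b at 9364540 to 9364560 on the plus strand. A second group holds d, e and f, with miR395d at 26269989 to 26270009 on the minus strand. The reads of a shared sequence cannot be assigned to a single locus.

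**Figure D2:**
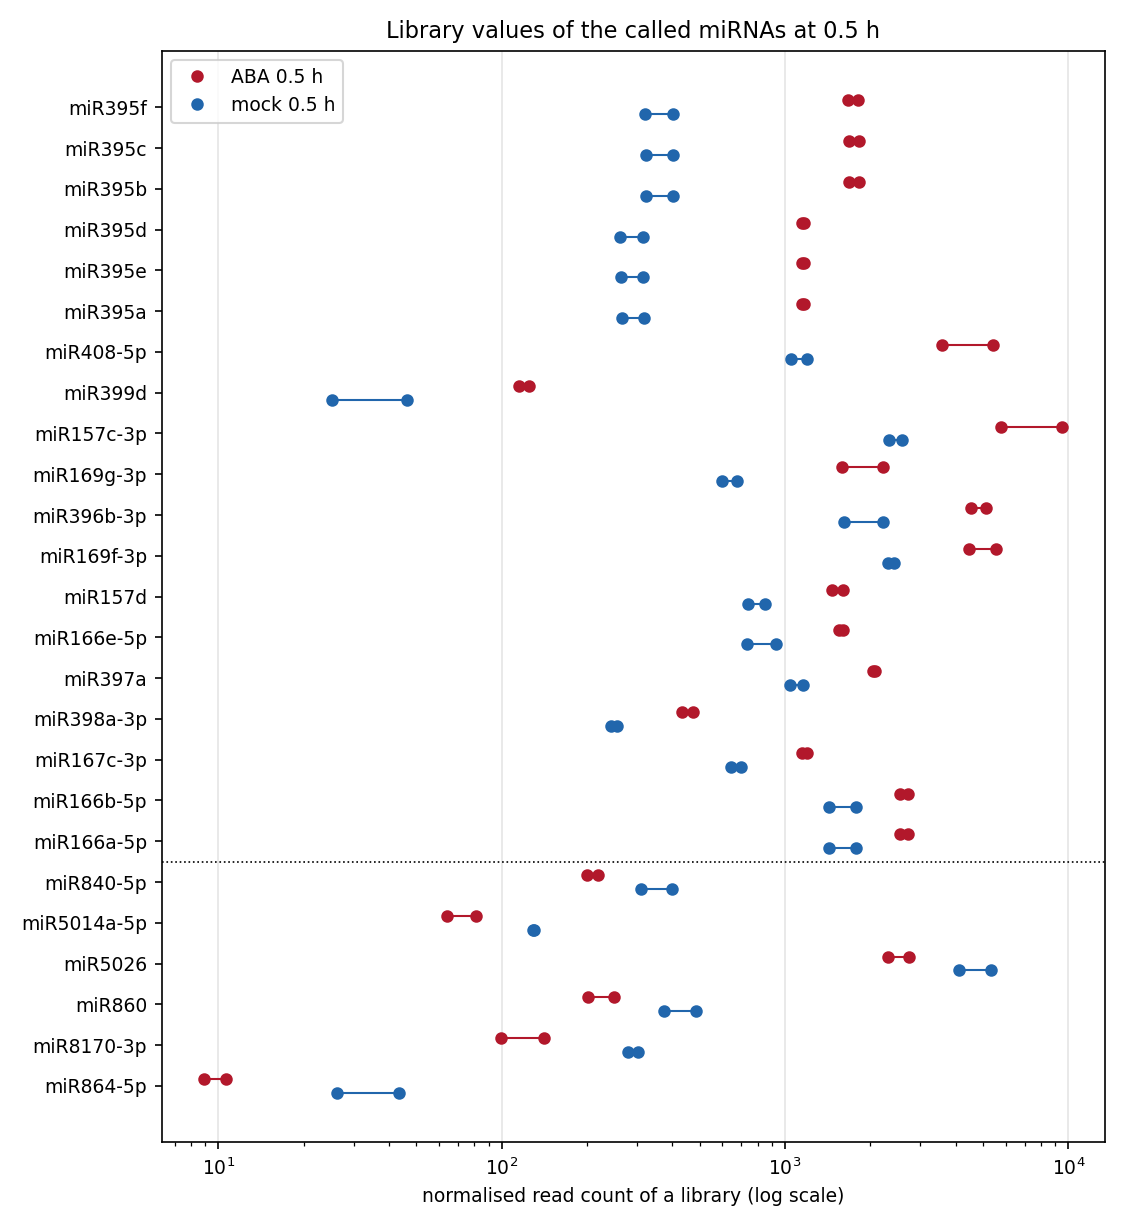
Normalised read count of each library at 0.5 h (horizontal, log scale) for the 25 described miRNAs that were called, sorted by log2 difference from the most raised to the most lowered; red points are the 2 ABA libraries and blue points the 2 mock libraries of a row, joined by a line, and the dotted line parts raised from lowered. In every row the libraries of ABA and mock do not overlap; the miR395 rows and miR408-5p head the raised and miR864-5p ends the lowered.

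Of the 8 tested miRNAs of the copper list, 3 were raised and 0 lowered, beside 5.46% and 1.64% of all tested rows. These families (miR408, miR398, miR397 and miR857) act on laccases, plantacyanin and copper superoxide dismutases, all proteins that bind copper. The largest difference was that of miR408-5p, the partner arm of the plantacyanin and laccase regulator miR408-3p, with 5432 and 3572 in the ABA libraries, against 1195 and 1053 in the mock libraries. Both ABA libraries lay above the mock libraries. The level rose 3.92-fold (limma, log2 difference 1.97, SE 0.29, adjusted p = 3.12e-04), and the call held with any of the 4 libraries left out. The 3p arm, the better known regulator, had 3785 and 3293 in ABA, against 2209 and 3267 in mock and did not pass (limma, log2 difference 0.39, SE 0.25, adjusted p = 0.399). The laccase regulator miR397a had 2045 and 2068 in ABA, against 1038 and 1154 in mock (log2 difference 0.91, SE 0.26, adjusted p = 0.0347, limma). The superoxide dismutase regulator miR398a-3p had 431 and 475 in ABA, against 243 and 255 in mock (log2 difference 0.86, SE 0.21, adjusted p = 0.0125, limma). The libraries of a group lay close together in both, but each lost its call whichever library was left out, at log2 differences of 0.83 to 0.99 and 0.79 to 0.93. The far more abundant miR397b, which differs from miR397a by G13U, had authors' means of 89131 in ABA and 81758 in mock (log2 ratio 0.12). The shared 3p sequence of miR398b and miR398c overlapped between the groups, with 3402 and 4797 in ABA, against 3812 and 5240.1 in mock for the miR398b row (limma, adjusted p = 0.835). Its 5p arm had no library values in mock and stood at authors' means of 21043 in ABA and 10650.2 in mock (log2 ratio 0.98, adjusted p = 0.0013 in the authors' deposited table). The laccase regulator miR857 had 94.2 and 120.5 in ABA, against 50.4 and 77.3 in mock and did not pass (limma, adjusted p = 0.208). With only the libraries of 0.5 h in the fit, 2 of the 8 tested rows were raised, and miR408-5p was not among them. The list's median log2 ratio was 0.74 over 11 described rows, beside -0.02 over all.

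The phosphate list, of miR2111, miR827, miR778 and miR399, had 1 raised and 0 lowered of 13 tested rows, beside 5.46% raised and 1.64% lowered of all tested rows, and a median log2 ratio of 0.42 over its 10 described rows. The raised member was miR399d, which like its family targets the ubiquitin-conjugating enzyme PHO2, a brake on phosphate uptake. It had 115 and 125 in the ABA libraries, against 25.2 and 46.4 in the mock libraries, with the 2 groups apart (log2 difference 1.78, SE 0.45, adjusted p = 0.0129, limma). It was called in only 1 of the 4 fits that left out a library, the fit without mock library b, and its log2 difference was 1.35 to 2.20 in the 4. The related miR399f, which differs from miR399d by C20G, had 2278 and 2017 in ABA, against 1022 and 1487 in mock and just missed the threshold (limma, adjusted p = 0.057), while the authors' deposited table calls it raised (adjusted p = 0.0108). The partner arm miR399c-5p had 404 and 242 in ABA, against 144 and 181 in mock, without overlap and without a call (limma, adjusted p = 0.0576). The members miR399a, miR399b and miR399c-3p had log2 differences of 0.43, 0.12 and 0.25 and were not called; miR399b turned to -0.021 without mock library a. Below the minimum level, miR399e had 10.9 and 10.7 in ABA, against 2.36 and 2.38 in mock, without a call (limma, adjusted p = 0.173). The level of miR827, which targets a ubiquitin ligase of phosphate and nitrogen balance, was 524 and 497 in ABA, against 297 and 332 in mock, not past the test (limma, adjusted p = 0.141). The arms of miR2111 did not pass either, with 134 and 125 in ABA, against 192 and 145 in mock for miR2111b-3p. The count of raised became 3 of 13 under median centring, 3 of 10 with a minimum mean of 10 and 2 of 13 with TMM. It was 0 without ABA library a or mock library a and 2 without mock library b. The nitrogen-linked miR826a and miR826b had at most 1 read in any library of 0.5 h.

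The miR169 family, the NF-Y list, targets the A subunits of the NF-Y transcription factors. Of 17 tested rows 2 were raised and 0 lowered, beside 5.46% raised and 1.64% lowered of all tested rows, and the median log2 ratio of the 18 described rows was -0.60. These 18 rows hold only 8 distinct sequences, and the sequence of miR169h to miR169n fills 7 of them. The counts depended on the processing, with 2 raised and 8 lowered under quantile normalization, 2 raised and 7 lowered with a minimum mean of 10, and 0 raised and 4 lowered with only the libraries of 0.5 h. The level of miR169g-3p was 1589 and 2223 in the ABA libraries, against 677 and 597 in the mock libraries, and that of miR169f-3p was 4452 and 5561 in ABA, against 2424 and 2301 in mock. Neither overlapped with mock, and they rose 2.95-fold and 2.11-fold (limma, log2 differences 1.56, SE 0.26, adjusted p = 4.45e-04 and 1.07, SE 0.26, adjusted p = 0.0125). The call of miR169g-3p held without any of the 4 libraries, and that of miR169f-3p only without ABA library a. The 3p arms of MIR169a and MIR169b had log2 differences of -0.18 and -0.28 and were not called. None of the tested 5p rows, which hold the known regulators, was called.

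The sequence shared by miR169h to miR169n stood lower in ABA in all 7 of its rows, at the edge of the threshold. The miR169h row had 411 and 545 in ABA, against 1317 and 1135 in mock, and the miR169i row had 1875 and 1976 in ABA, against 3552 and 3478 in mock. No ABA library reached a mock library, and the log2 differences ran from -1.38 to -0.87, all at a limma adjusted p of 0.0576, just above the threshold. All 7 rows passed under quantile normalization and with a minimum mean of 10, at adjusted p of 0.0474 with the minimum, and 4 of them (i, j, l and n) passed with only the libraries of 0.5 h. The authors' deposited table calls all 7 lowered, at an adjusted p of 2.72e-06 for miR169k and 0.00551 for miR169i. Rows of this sequence differ up to 4.03-fold in level within the ABA group, so they were not counted alike. The miR169b-5p row had 4722 and 4503 in ABA, against 9207 and 6222 in mock, the close relative miR169a-5p had authors' means of 29507 in ABA and 27368 in mock, and the miR169c row, of the same sequence as miR169b-5p, had 6073 and 5578 in ABA, against 10168 and 7014 in mock. None of these was called (limma, adjusted p = 0.0736 for miR169b-5p). The sequence shared by miR169d, miR169e, miR169f-5p and miR169g-5p gave log2 differences of 0.12, 0.11, -0.35 and -0.65, none called, and those of miR169d and miR169e turned to -0.065 and -0.13 under quantile normalization. The reads of this sequence are uncertain between its 4 loci.

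Among the miRNAs of developmental timing (miR156 and miR157, which target SPL factors of the juvenile phase, and miR172, which targets AP2-like factors), 2 of 18 tested rows were raised and 0 lowered, beside 5.46% raised and 1.64% lowered of all tested rows. Raised were 4 of 17 with a minimum mean of 10, 1 of 18 under quantile normalization and 0 of 18 with only the libraries of 0.5 h. Of 29 described rows 26 lay above 0, with a median log2 ratio of 0.62, beside 168 above and 184 below over all 352. These 29 rows hold only 18 distinct sequences, and the shared miR156 5p sequence fills 6 of them. The raised were miR157c-3p, with 9479 and 5790 in the ABA libraries, against 2323 and 2591 in the mock libraries (log2 difference 1.59, SE 0.36, adjusted p = 0.00952, limma), and miR157d, with 1596 and 1461 in ABA, against 852 and 741 in mock (log2 difference 0.94, SE 0.25, adjusted p = 0.0174, limma). The groups did not overlap in either; miR157c-3p kept its call only without ABA library b or mock library b, at log2 differences of 1.24 to 1.95 over the 4 fits, and miR157d lost it in all 4. The shared 3p sequence of miR157a and miR157b had 21987 and 15366 in ABA, against 8142 and 9674 in mock and missed the limma threshold (adjusted p = 0.0736 and 0.0696), while the authors' deposited table calls it raised (adjusted p = 0.0269). The abundant miR156 regulator, shared by miR156a-5p to miR156f-5p, had authors' means of 52037 in ABA and 28797 in mock in the miR156a-5p row, with no library values (log2 ratio 0.85, adjusted p = 0.0967 in the authors' deposited table). The partner arms miR156c-3p and miR156f-3p had authors' means of 65956 in ABA and 31439 in mock and of 11647 in ABA and 3459 in mock, and the authors' deposited table calls only the first of them (adjusted p = 5.15e-04 and 0.0665). The 8 miR172 rows were not called, miR172a at 61.5 and 89.6 in ABA, against 121 and 132 in mock and miR172b-5p at 239 and 156 in ABA, against 142 and 133 in mock.

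In the leaf list (miR165 and miR166 against HD-ZIP III factors, miR319 against TCP factors and miR396 against GRF factors), 4 of 5 tested rows were raised and 0 lowered, beside 5.46% raised and 1.64% lowered of all tested rows. All 4 are partner arms of an abundant regulator. The count fell to 1 of 5 whichever library was left out and to 0 of 5 with only the libraries of 0.5 h. The level of miR166e-5p was 1601 and 1550.4 in the ABA libraries, against 736 and 926 in the mock libraries, and miR396b-3p had 4533 and 5126 in ABA, against 2212 and 1612 in mock. Both were apart from mock (log2 difference 0.93, SE 0.18, adjusted p = 0.00193, and log2 difference 1.35, SE 0.33, adjusted p = 0.0125, limma). The call of miR166e-5p was lost only without mock library a (log2 difference 0.77, adjusted p = 0.0691), and that of miR396b-3p was kept only without mock library a. The shared 5p sequence of miR166a and miR166b had 2539 and 2716 in ABA, against 1425 and 1786 in mock in the miR166a row (log2 difference 0.72, SE 0.21, adjusted p = 0.0431, limma), lost with any library left out. The arm miR165a-5p had 4428 and 4090.3 in ABA, against 2632 and 3399.8 in mock and was not called (limma, adjusted p = 0.0801). Their abundant partners had no library values. The shared miR166 3p sequence stood at authors' means of 105805 in ABA and 105599 in mock in the miR166b row (log2 ratio 0.00), miR396b-5p at 40079.8 in ABA and 37129 in mock (0.11), and miR319a at 134827 in ABA and 162823 in mock (-0.27). Over all 20 described rows the median log2 ratio was 0.00, and 15 lay above 0 and 5 below. These 20 rows hold only 11 distinct sequences, and the shared miR166 3p sequence fills 7 of them.

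The auxin list (miR160 and miR167 against auxin response factors, miR164 against NAC factors, miR390 as the trigger of TAS3 siRNAs and miR393 against auxin receptors) had 1 raised and 0 lowered of 16 tested rows, beside 5.46% raised and 1.64% lowered of all tested rows. The raised row was miR167c-3p, with 1150.5 and 1192 in the ABA libraries, against 700.3 and 645 in the mock libraries (log2 difference 0.80, SE 0.20, adjusted p = 0.0125, limma), lost with any library left out. The 5p sequence of miR160, at authors' means of 11052 in ABA and 18469 in mock in the miR160b row, is called lowered by the authors' deposited table (log2 ratio -0.74, adjusted p = 0.027) and had no library values in mock. The partner arm miR164b-3p had 120 and 116 in ABA, against 199 and 265 in mock, without overlap and not called by limma (adjusted p = 0.0576). The authors' deposited table calls miR164b-3p lowered (adjusted p = 0.0262). The miR390 5p sequence had 1670.1 and 1444 in ABA, against 1489 and 1375 in mock in the miR390a row and was not called (limma, adjusted p = 0.744). The miR393 5p sequence, the most abundant of the table at 12.9% of the total in ABA and 11.8% in mock for each of its 2 rows, had authors' means of 736617 in ABA and 700552 in mock (log2 ratio 0.07). That total adds every row of a shared sequence. The miR393 3p arms had log2 differences of -0.24 and -0.21, neither called, and miR393b-3p turned to 0.060 under quantile normalization.

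**Figure D3:**
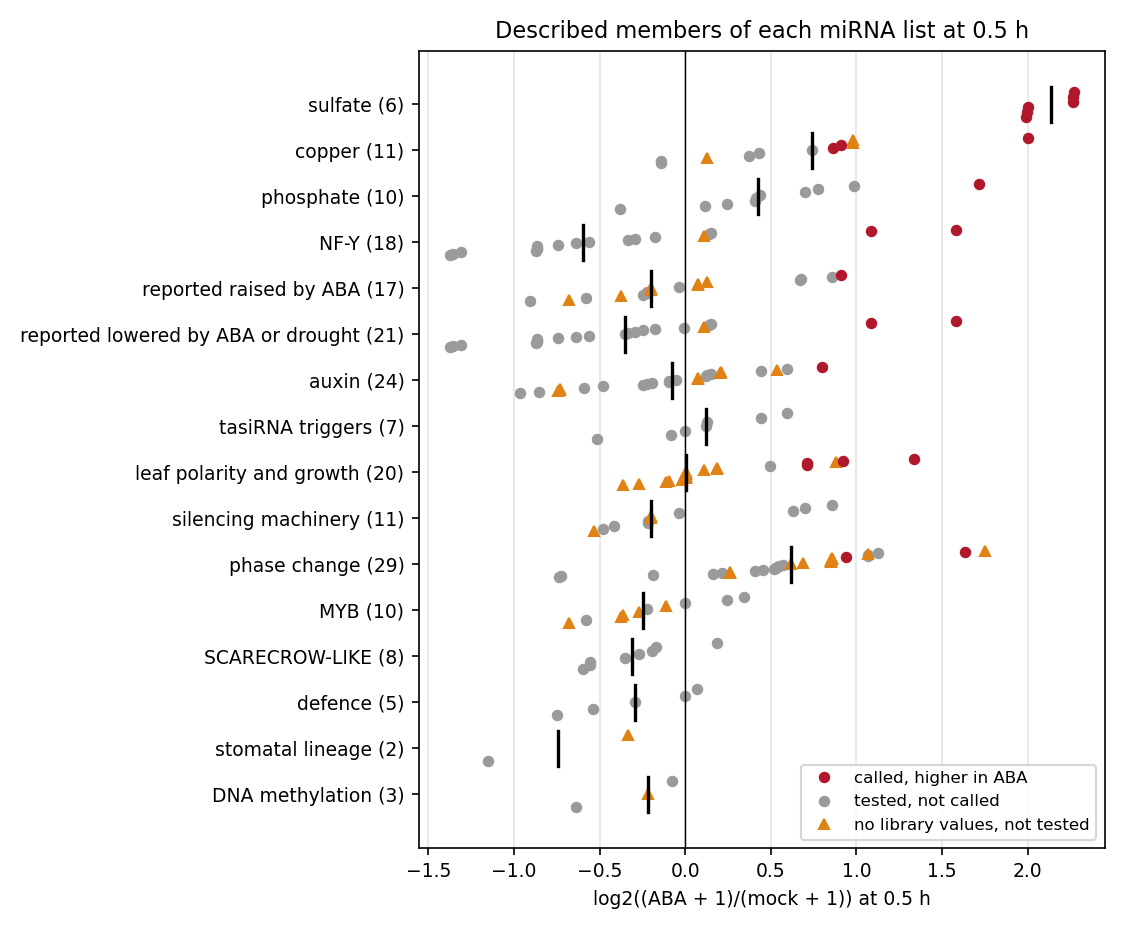
log2((ABA + 1)/(mock + 1)) at 0.5 h of each described member (points) of the miRNA lists, with the number of members in brackets; red points are called raised by limma, grey points tested and not called, triangles not tested, and black bars are medians. All 6 sulfate members lie at 1.99 or above, the copper and phase change medians stand at 0.74 and 0.62, and the NF-Y members spread on both sides of 0.

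The list of families that other work reports as raised by ABA (miR402, miR397, miR394, miR393, miR168 and miR159) had 1 raised of 11 tested rows, miR397a, and 0 lowered, beside 5.46% raised and 1.64% lowered of all tested rows, and a median log2 ratio of -0.20 over 17 described rows. The MYB regulator miR159a had authors' means of 413046 in ABA and 660490 in mock (log2 ratio -0.68), not called in the authors' deposited table (adjusted p = 0.334). The related miR159b-3p stood at 211073 in ABA and 273887 in mock, miR159b-5p at a log2 difference of -0.58 and miR159c at -0.20, which turned to 0.092 without mock library b. The miR168 5p sequence, which targets the ARGONAUTE1 transcript, had authors' means of 305442 in ABA and 351212 in mock in the miR168a row. Its partner arm miR168b-3p had 1014 and 1189 in ABA, against 624 and 591 in mock, raised in the authors' deposited table (adjusted p = 0.012) and not by limma (adjusted p = 0.121). The partner arm miR168a-3p had a log2 difference of -0.04, which turned positive without ABA library a or mock library a. The miR394 sequence, which targets the F-box gene LCR, overlapped between groups, with 503 and 822 in ABA, against 507 and 320 in mock in the miR394a row, and miR394b-3p lay below the minimum level at a log2 difference of 0.38. The level of miR402, which targets a DEMETER-like glycosylase, was 23.8 and 39.5 in ABA, against 59.9 and 60.7 in mock, lower in both ABA libraries and not past the limma test (adjusted p = 0.138).

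Apart from the families reported as lowered by ABA or drought, the other lists had no called row. Of the tasiRNA triggers 0 of 7 tested rows passed, of the silencing machinery 0 of 8 and of the MYB list 0 of 5, beside 7.1% of all tested rows. None passed in the SCARECROW-LIKE list (8 tested), the defence list (5), the DNA methylation list (3) and the stomatal lineage list (1). With so few rows, 0 called does not set any of these lists apart from all tested rows. The stomatal regulator's arm miR824-3p had 3161 and 2991 in ABA, against 5074 and 8622 in mock, without overlap (limma, adjusted p = 0.0696). Families reported as lowered by ABA or drought had 2 raised and 0 lowered of 20 tested rows, beside 5.46% raised and 1.64% lowered of all tested rows. Both raised rows were the 3p arms miR169f-3p and miR169g-3p. Of the list's 21 described rows, which hold 11 distinct sequences, 16 lay below 0 and 5 above, with a median log2 ratio of -0.35. The authors' deposited table calls 7 of its rows lowered and 2 raised. The level of miR846-3p was 4890.4 and 6384 in ABA, against 6413 and 6990 in mock. That of miR842 was 1371 and 1238 in ABA, against 1434 and 1185 in mock. The SCARECROW-LIKE list, which regulates meristem factors, had 7 of 8 rows below 0, with a median log2 ratio of -0.31. These 8 rows hold 6 distinct sequences.

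The 6 lowered miRNAs are all of families outside these lists, and their targets are not described here. The largest fall was that of miR864-5p, with 8.93 and 10.7 in the ABA libraries, against 43.3 and 26.2 in the mock libraries (log2 difference -1.69, SE 0.42, adjusted p = 0.0128, limma), from a row with few reads. Next was miR8170-3p, with 99.2 and 141 in ABA, against 278 and 302 in mock (log2 difference -1.29, SE 0.32, adjusted p = 0.0128, limma). In both rows each ABA library lay below each mock library, and miR864-5p kept its call only without mock library b and miR8170-3p only without ABA library b. The row miR860 had 202 and 248 in ABA, against 483 and 375 in mock (limma log2 difference -0.92, adjusted p = 0.0125). The row miR5026, the most abundant of the 6, had 2747 and 2316 in ABA, against 5337 and 4092 in mock (limma log2 difference -0.89, adjusted p = 0.0125). These 2 were called in 2 of 4 fits, miR860 without ABA library b or mock library b and miR5026 without ABA library a or mock library b. The row miR5014a-5p had 81.3 and 64 in ABA, against 129 and 129.7 in mock (limma log2 difference -0.83, adjusted p = 0.0398). The row miR840-5p had 199 and 219 in ABA, against 399 and 309 in mock (limma log2 difference -0.75, adjusted p = 0.0431), and both lost the call whichever library was left out. The lowest ratio of the table, that of miR869, was not called by limma: it had 0.992 and 5.33 in ABA, against 22.8 and 21.4 in mock (adjusted p = 0.0576), and it is named for its value. The authors' deposited table calls miR869 lowered (adjusted p = 0.0139).

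The 50 described miRNAs without library values in both groups are the abundant ones, with means from 7553 upward. They hold 94.6% of the deposited signal in ABA and 95.1% in mock, a signal that adds every row of a shared sequence. Their values are the authors' means, with no SD or n. The highest ratios among them were those of miR156f-3p (1.75), miR156c-3p (1.07), miR398c-5p (0.98), miR398b-5p (0.98) and miR396a-3p (0.88), which are all partner arms or, for miR398, the more abundant arm. The lowest was that of miR163, which targets methyltransferases, at authors' means of 43385 in ABA and 142698 in mock (log2 ratio -1.72). Its ABA libraries were 43184 and 43586, its mock libraries could not be recovered, and the authors' deposited table does not call it (adjusted p = 0.489). The shared miR167 5p sequence had authors' means of 187056 in ABA and 162197 in mock in the miR167a row and miR158a-3p 147430 in ABA and 214428 in mock (log2 ratios 0.21 and -0.54), and neither is called in the authors' deposited table.

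Among the 81 hairpins with both arms described, the arm with the higher mean over the mock columns of the other 6 times is called the major arm here. Of minor arms 8 were raised and 2 lowered of 77 tested, and of major arms 2 were raised and 2 lowered of 52 tested, beside 5.46% and 1.64% of all tested rows. With 1 library of 0.5 h left out, the raised minor arms came to 2 without ABA library a, 4 without ABA library b, 2 without mock library a and 3 without mock library b, and with only the libraries of 0.5 h to 2, with 0 raised major arms. The medians of the log2 ratio were -0.12 for minor and -0.05 for major arms, both near 0. By conserved families, 8 of 45 tested minor arms were raised and 0 lowered, and by other families 0 of 32 were raised and 2 lowered; this division was drawn with the results known.

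The ratio of the minor to the major arm was compared within each library for the 52 hairpins with library values of both arms. It was called higher in ABA for 1 (1.92%) and lower for 2 (3.85%) with limma. For MIR408 the ratio of miR408-5p to miR408-3p was 1.44 and 1.08 in the ABA libraries, against 0.541 and 0.322 in the mock libraries (log2 difference 1.58, SE 0.41, adjusted p = 0.0242), so the 5p arm exceeded the 3p arm in both ABA libraries and in neither mock library. For MIR169g the ratio of 5p to 3p was 0.175 and 0.181 in ABA, against 0.866 and 0.797 in mock (log2 difference -2.22, SE 0.39, adjusted p = 0.00135). For MIR169f it was 0.110 and 0.124 in ABA, against 0.340 and 0.289 in mock (log2 difference -1.42, SE 0.30, adjusted p = 0.00436). Both miR169 ratios kept their call in all 4 fits without a library and that of MIR408 in 1. The miR169 5p reads are uncertain between 4 loci of 1 sequence, while each 3p sequence is that of a single row. The share of the minor arm in the 2 authors' means was higher in ABA for 45 and lower for 36 of the 81 hairpins. Where the major arm had no library values and the minor arm was tested, it was higher for 14 and lower for 11. Among those with a raised minor arm it was 15.4% in ABA and 8.28% in mock for MIR157c, 10.8% in ABA and 4.90% in mock for MIR396b, and 1.47% in ABA and 0.780% in mock for MIR166e. The shared minor sequence of MIR166a and MIR166b is also raised. Among those without a call it was lower for MIR398b, at 16.3% in ABA and 29.8% in mock, and for MIR824, at 7.66% in ABA and 12.8% in mock.

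**Figure D4:**
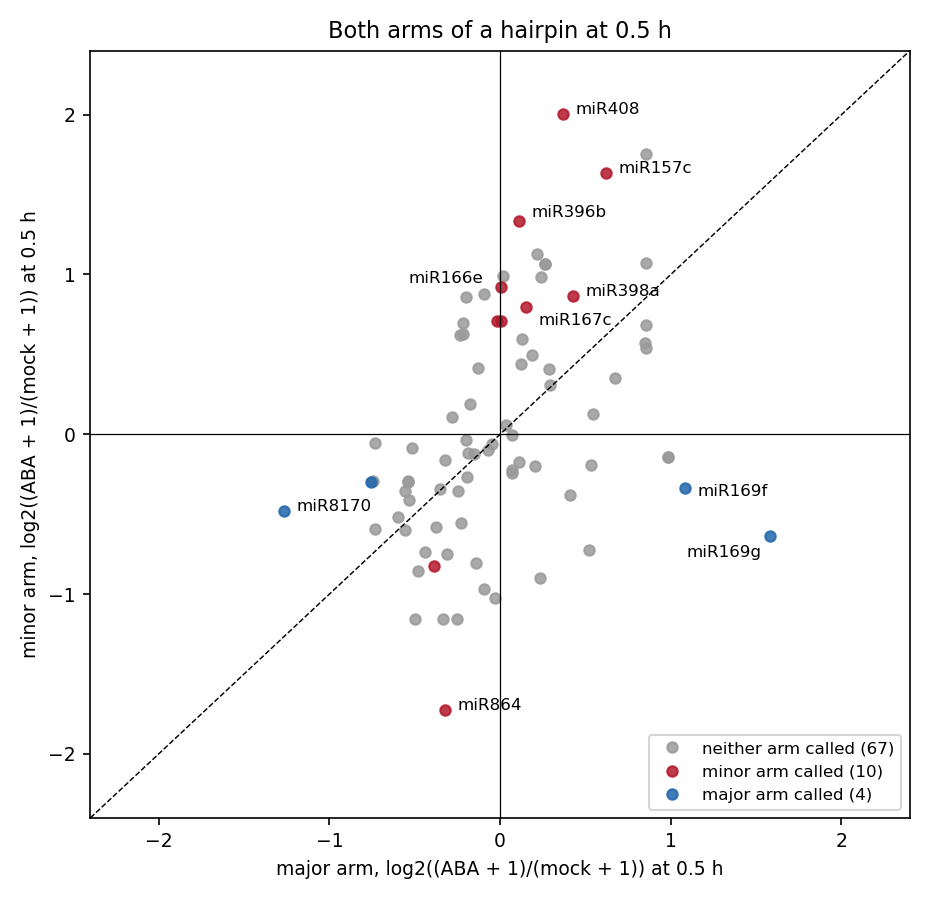
log2((ABA + 1)/(mock + 1)) at 0.5 h of the major arm (horizontal) and the minor arm (vertical) of the 81 hairpins with both arms described; colours mark the limma call, and the dashed line marks equal ratios. The arms of miR408, miR157c and miR396b lie above the line with the minor arm at 2.001, 1.64 and 1.34, and those of miR169f and miR169g lie below it with the major arm at 1.08 and 1.58.

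The 0.5 h response was set against the later times with separate ABA and mock libraries at each. The difference at 0.5 h minus the mean difference of the other 6 times was called for 31 of 357 tested miRNAs, 20 higher at 0.5 h (5.6%) and 11 lower (3.08%). With 1 library of 0.5 h left out, 13 were called without ABA library a, 17 without ABA library b, 20 without mock library a and 9 without mock library b. Higher at 0.5 h were miR396b-3p and miR157c-3p, whose 0.5 h differences of 1.35 and 1.59 stood beside means of -0.76 and -0.51 at the other times (difference 2.11, adjusted p = 0.00134, and 2.11, adjusted p = 0.00204, limma). The log2 ratio of the authors' means for miR396b-3p was 1.34 at 0.5 h, 0.26 at 1 h, -0.79 at 3 h, -1.20 at 6 h, -0.53 at 9 h, -1.21 at 12 h and -1.02 at 24 h. The miR395 sequences were higher at 0.5 h by 2.01 for miR395b (adjusted p = 0.00204) and 1.50 for miR395a (adjusted p = 0.0137). The log2 ratio of miR395b was 2.27 at 0.5 h, 2.25 at 1 h, 1.09 at 3 h, 0.45 at 6 h, 0.43 at 9 h, -1.26 at 12 h and -1.16 at 24 h. The 3p arms of miR169g and miR169f were higher by 1.46 (adjusted p = 0.00204) and 1.14 (adjusted p = 0.0113). This was not particular to 0.5 h, because their differences at 1 h were 1.40 and 1.54, beside 1.56 and 1.07 at 0.5 h.

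Of 8 tested rows of the copper list 1 was higher and 3 lower at 0.5 h than at the other times. The phosphate list had 1 higher and 3 lower of 13 tested. Over all 357 tested rows the shares were 5.6% higher and 3.08% lower. The lower copper rows include miR398b-3p and miR398c-3p, which share a sequence. The lower phosphate rows include miR2111a-5p and miR2111b-5p, which share another. Higher were miR398a-5p (1.13, adjusted p = 0.0237) and miR399c-5p (1.09, adjusted p = 0.0401), both with limma. The arm miR2111b-3p had 134 and 125 in the ABA libraries, against 192 and 145 in the mock libraries at 0.5 h, below mock in both ABA libraries. Its log2 ratios were -0.38 at 0.5 h, 0.40 at 1 h, 2.09 at 3 h, 2.28 at 6 h, 2.06 at 9 h, 2.44 at 12 h and 2.12 at 24 h (0.5 h minus the other times -2.27, SE 0.23, limma adjusted p = 9.90e-07). The miR2111 5p sequence, at 188 and 187 in ABA, against 128 and 153 in mock in the miR2111a row, was lower at 0.5 h by the same test (-1.32, adjusted p = 0.00204), as was the miR398b and miR398c 3p sequence (-1.50, adjusted p = 0.00506). For miR397a the 0.5 h difference of 0.91 was called and was still below the mean of 2.06 at the other times (-1.15, adjusted p = 0.0103). The miR397a row had log2 ratios of 0.91 at 0.5 h, 1.65 at 1 h, 2.26 at 3 h, 2.44 at 6 h, 2.53 at 9 h, 1.92 at 12 h and 1.75 at 24 h. For miR8170-3p the 0.5 h difference of -1.29 stood beside a mean of -0.06 at the other times (-1.22, limma adjusted p = 0.0293). By contrast the 0.5 h differences of miR399d and miR408-5p were not called different from those of the other times (limma, difference 0.00, SE 0.48, and 0.35, SE 0.31).

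**Figure D5:**
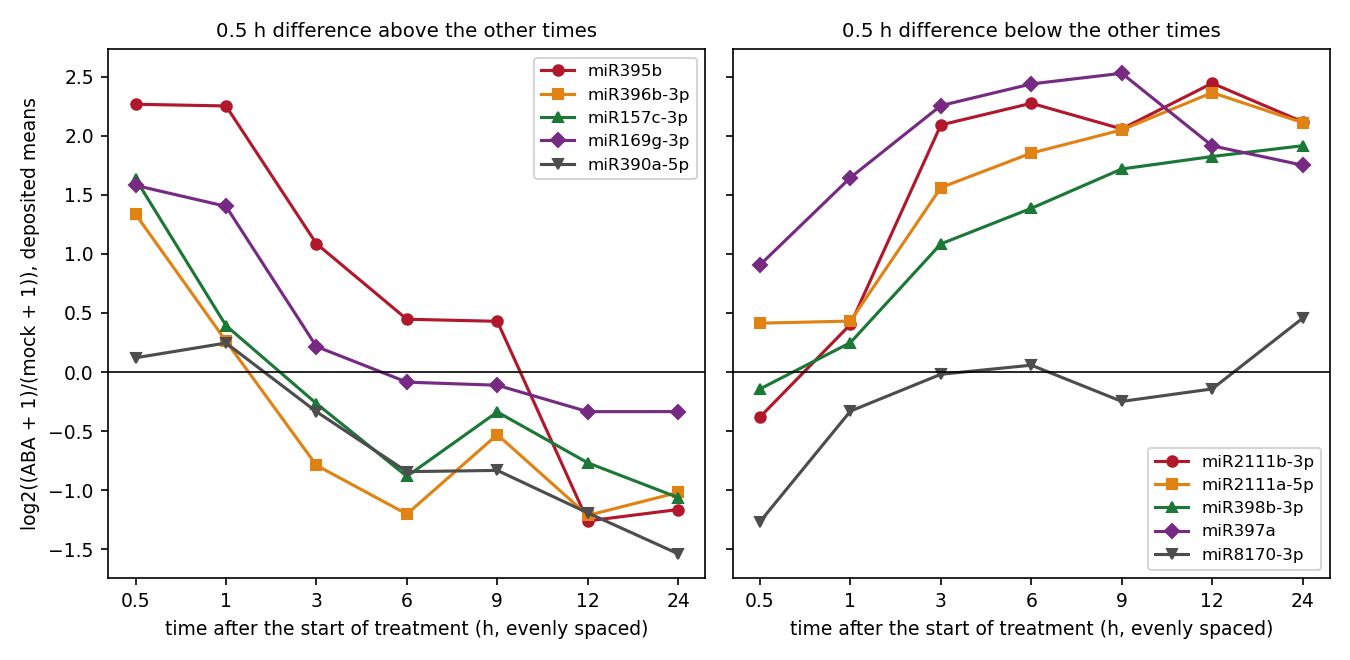
log2((ABA + 1)/(mock + 1)) of the authors' means at each of the 7 times (horizontal, h, evenly spaced) for miRNAs whose 0.5 h difference was called higher (left) or lower (right) than the mean of the other 6 times. The miR395b line starts at 2.27 and ends at -1.16, and the miR2111b-3p line starts at -0.38 and ends at 2.12.

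Against 1 h, the nearest time, no difference was called. The contrast of the 0.5 h and the 1 h difference called 0 of 365 miRNAs (0.0%) with limma. An unadjusted p under 0.05 was found for 24, and the smallest adjusted p was 0.686. In the separate libraries of 1 h, 20 of 20 raised and 6 of 6 lowered miRNAs had the same sign of difference as at 0.5 h, beside 61.4% of the 365 tested at both times. The 20 raised rows hold 15 mature sequences. The 365 rows were not chosen for a large difference, as the called rows were, so their share is not a like reference. The 1 h difference was 2.19 for miR395b, 1.52 for miR408-5p and 2.10 for miR399d, beside 2.27, 1.97 and 1.78 at 0.5 h. It was 0.27 for miR396b-3p and 0.32 for miR157c-3p, beside 1.35 and 1.59 at 0.5 h.

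By sequence, the described miRNAs hold 269 matched mature sequences. Those that begin with G had a median log2 ratio of 0.52 (31 sequences, 7 past 2-fold higher in ABA and 0 lower), beside -0.09 for U (145), -0.07 for A (67) and -0.13 for C (26). Among the sequences that begin with G are those of miR156c-3p, miR157c-3p, miR166e-5p, miR396b-3p and miR169f-3p, all minor arms of their hairpins except miR169f-3p. Sequences of 21 bases, the usual length, had a median of -0.09 (203 sequences). By level, the median was -0.12 from 10 to 100 normalised reads, -0.06 from 100 to 1000, -0.04 from 1000 to 10000 and 0.07 above. Grouped by seed, the miR395 seed UGAAGUG stood at a median of 2.13 over 6 rows, the seed AGCCAAG of 10 miR169 rows at -0.87, and the GACAGAA seed of miR156 and miR157d stood at 0.85 over 10 rows.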

How the data were processed

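The authors' deposited table gives for each of 421 miRNAs a mean signal for each of 14 groups of 2 libraries, and the authors' log2 ratios and adjusted p-values for 7 times; per the file headers the columns are treatments at a time. The deposited log2 ratio equals the ratio of the 2 means within 2.9e-09. FastQC, STAR and TAIR10 are named in the submitters' processing notes; no source used here names the counter, the annotation or the test. The log2 ratio columns, in unit other, and the adjusted p-value columns are the authors' own comparisons as deposited and were printed as such, not tested. Each signal value was a sum of whole multiples of 2 steps, as the mean of 2 counts divided by size factors gives, and 89.9% of 5894 values had a single pair of whole counts, which gave library values. Size factors recomputed from the recovered counts as medians of ratios were 0.992 and 0.941 in ABA and 1.29 and 0.839 in mock.

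Library values plus a pseudocount of 1 were taken to log2 and compared over 14 groups with lmFit and a trended eBayes of limma 3.58.1 in R 4.3.3, on rows with at least 1 in at least 2 libraries and library values in both 0.5 h groups; 9 rows lacked some other group. Tests were two-sided, with Benjamini-Hochberg adjustment over all tested rows and a threshold of 0.05. Alternatives used TMM, median and quantile scaling and other pseudocounts and filters. The within-library arm ratio was added after the data were seen. Fold changes are on the log2(value + 1) scale.

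The naming rule took up to 12 raised and 12 lowered described miRNAs with the largest differences (12 and 6 were found), the 10 most abundant, 5 highest and 5 lowest without library values, 5 called with the smallest p against the other times, members of 17 lists as examples and 11 families always. Members, lists and tests were chosen with earlier results of these data known. Names were matched to RefSeq TAIR10.1 for 413 of 421 miRNAs, 335 sequences, 45 of them shared by 123 names; no position was carried between builds. The split and the fit were tested on simulated data.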

Additional observations from a re-analysis of the deposited data

Results flagged for a closer look

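The 0.5 h difference, ABA minus mock, was called different from the mean difference of the other 6 times for 31 miRNAs (limma, adjusted p under 0.05), by a test of the difference itself, and each value here is that 0.5 h difference minus the other times on the log2 scale. It was higher at 0.5 h for miR396b-3p (2.11), miR157c-3p (2.11), miR157d (0.99), miR169g-3p (1.46) and miR169f-3p (1.14). The miR395 rows were higher by 2.01 (miR395c), 2.01 (miR395b), 1.996 (miR395f), 1.51 (miR395e), 1.50 (miR395d) and 1.50 (miR395a). The miR390 arms were higher by 0.87 (miR390a-5p), 0.87 (miR390b-5p) and 1.30 (miR390a-3p), with 0.5 h differences of 0.12, 0.12 and 0.45 that were themselves not called. Also higher were miR5028 (1.52), miR398a-5p (1.13), miR399c-5p (1.09), miR167a-3p (1.17) and miR447c-5p (2.75). The value of miR2937 (2.17) rests on 2 and 3 reads in the ABA libraries and 0 in both mock libraries of 0.5 h.

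It was lower at 0.5 h for miR2111b-3p (-2.27), miR2111b-5p (-1.32), miR2111a-5p (-1.32), miR398c-3p (-1.50), miR398b-3p (-1.50) and miR397a (-1.15). It was also lower for miR8170-3p (-1.22), miR164b-3p (-1.09), miR8177 (-0.67), miR170-5p (-0.83) and miR171a-5p (-0.82). Of these, miR5028, miR2937 and miR8177 are named only because they passed this test. Groups of 2 libraries are too small for a check of single samples that stand apart.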

How the results depend on the processing

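The count of 26 called at 0.5 h became 15 with only the libraries of 0.5 h, 40 with quantile normalization (22 raised, 18 lowered) and 10 to 15 without a replicate. A minimum mean of 10 gave 23 raised and 15 lowered. TMM, median centring, pseudocounts 0.1 and 5, no filter and 1 row for each sequence gave 21 to 28. The 31 called against the other 6 times became 9 to 20 without a replicate and 22 to 32 otherwise, and the 0 against 1 h stayed 0 in every alternative. The 33 past 2-fold became 21 with a minimum mean of 100. The 3 called arm ratios became 8 with only the libraries of 0.5 h. The 6 raised miR395 rows were raised in every alternative, as 2 with 1 row for each sequence. The cause of the other changes was not tested. The planned tests on counts are not reported, because the deposited values are means of 2 libraries and not counts.

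Of the 20 called miRNAs of the naming rule and the families, 0 reversed. Under other settings 160 of their comparisons kept the call and 16 fell short of the threshold. Without a replicate nearly as many comparisons fell short as kept the call. Among 38 not called, 25 comparisons under other settings and 2 without a replicate passed the threshold, and 14 values turned sign. Over the fits without a replicate the log2 differences ran from -0.50 to 0.092 for miR159c, -0.13 to 0.054 for miR168a-3p, -0.19 to 0.43 for miR169d, -0.20 to 0.42 for miR169e, -0.32 to 1.07 for miR394b-3p, -0.39 to 0.10 for both miR398b-3p and miR398c-3p, and -0.021 to 0.27 for miR399b. Under quantile normalization they were -0.065 for miR169d, -0.13 for miR169e and 0.060 for miR393b-3p. No paired analysis was possible because the recovered libraries carry no replicate number. For the 50 abundant miRNAs the spread between libraries is unknown, and the counts behind a low row such as miR864-5p limit its precision.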

Other observations

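The 69 miRNAs under the minimum mean of 10 were left out of the description. Of these 64 were tested and 1 was called, miR447c-5p, with 18.8 and 12.8 in ABA, against 5.51 and 1.19 in mock (log2 difference 2.13, SE 0.61, adjusted p = 0.0347, limma), kept only without mock library a, and 11 were listed at 0 in both groups.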
